A study of Mus musculus with 2 samples.

Results

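Toll-like receptors (TLRs), their co-receptors and their shared adaptor were followed in single bone marrow cells of SAA and RC mice. The set holds 10 of the 31053 genes counted, picked by name. It consists of the surface receptors *Tlr2* and *Tlr4*, their co-receptors *Cd14* and *Ly96*, the endosomal receptors *Tlr7*, *Tlr8*, *Tlr9* and *Tlr13*, the endosomal chaperone *Unc93b1* and the adaptor *Myd88*. SAA mice modelled severe aplastic anemia: F1 hybrids (genotype C57BL/6;Balb/c) received 300 rads and then 65000000 B6 splenocytes. RC mice were F1 hybrids of the same genotype that received 300 rads and no splenocytes. The age of the mice and the day of harvest of these 2 libraries are not given in the sources used here. Live (7-AAD-) CD11b+Ly6C+Ly6G- marrow cells were sorted, the cells of 3 mice were pooled, and 1 library was made per condition, so no test between SAA and RC mice was possible. Every interval below is a 95% interval that covers counting error only, since differences between mice could not be measured.

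TLRs sense microbial products. TLR2 and TLR4 act at the cell surface on bacterial lipoproteins and lipopolysaccharide, with CD14 as a carrier of ligand and MD-2, the product of *Ly96*, as the subunit of TLR4 that binds lipopolysaccharide. TLR7, TLR8, TLR9 and TLR13, the last of which humans lack, sit in endosomes and sense nucleic acids, and UNC93B1 is the chaperone that carries them there. All 6 receptors signal through MYD88, which assembles IRAK kinases into a complex that activates NF-κB.

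The SAA library held 5592265 counts of unique molecular identifiers (UMIs, each standing for 1 captured transcript) in 825 barcodes and the RC library 4066589 in 798. Of these, 729 and 662 cells had at least 1000 detected genes. A cell was called monocyte-like where the UMIs of *Csf1r*, *Ccr2*, *F13a1*, *Ms4a6c* and *Ly86* outnumbered those of *Camp*, *Ngp*, *Fcnb*, *Cebpe*, *Elane*, *Mpo*, *Prtn3* and *Ctsg*, and granulocyte-like in the opposite case. This gave 285 monocyte-like cells in SAA and 342 in RC (median 6082 and 3347.5 UMIs), and 421 and 318 granulocyte-like cells (median 6849 and 6787.5 UMIs), although the sort gate was set for Ly6G- cells. Monocyte markers that the split did not use (*Irf8*, *Klf4*, *Mpeg1*, *Ctss*, *Fn1*, *Cx3cr1*) summed to 2690 UMIs per 1000000 UMIs of the class (CPM) in monocyte-like cells of SAA and 4895 CPM in those of RC, against 306.7 and 73.4 CPM in granulocyte-like cells. *Siglech*, a defining marker of plasmacytoid dendritic cells, was at 0 UMIs in both classes of both libraries. The list of plasmacytoid dendritic cell markers summed to 22.2 CPM in monocyte-like cells of SAA (2 of 5 detected) and 58.9 CPM in those of RC (1 of 5, *Tcf4*), and the list of conventional dendritic cell markers to 1.97 CPM (2 of 5) and 37.5 CPM (3 of 5, with *Xcr1* and *Zbtb46* at 0). The SAA library also held 39 T/NK-like cells, of which 10 lay in the monocyte-like and 7 in the granulocyte-like class, and the RC library 1. The libraries shared 1 barcode.

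The promoters of 5 of the 10 genes could be read from RefSeq (GRCm38.p6). They are the 250 bases before the start annotated in RefSeq, 5′ to 3′ on the strand of the gene. Letters searched, each with its reverse complement, were TTCNNNGAA (the GAS element of STAT factors, in 7.02% of 32851 promoter windows), the ISRE of interferon-stimulated genes (GAAA, any 2 bases, GAAA, in 2.98%) and GAGGAAGT (a PU.1-type ETS site, in 2.44%). *Myd88* is shown because it was higher in SAA in both cell classes, and *Tlr8* because it was lower in SAA monocyte-like cells. *Tlr13* is shown because its ratio over all monocyte-like cells was not beyond counting error. Capitals mark the matches. The gene coordinates given further below come from GENCODE, whose starts can differ from those of RefSeq. The window of *Myd88* lies inside its GENCODE interval (chr9:119335934-119341411), and that of *Tlr13* runs past its GENCODE start (106143204). The windows are chr9:119340019-119340268 (minus strand), chrX:167264330-167264579 (minus strand) and chrX:106143025-106143274 (plus strand).
Myd88: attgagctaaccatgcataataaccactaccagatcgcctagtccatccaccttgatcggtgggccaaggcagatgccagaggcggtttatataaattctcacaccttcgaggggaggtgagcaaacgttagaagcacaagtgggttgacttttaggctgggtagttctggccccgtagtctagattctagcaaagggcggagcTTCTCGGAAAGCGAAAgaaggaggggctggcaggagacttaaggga
Tlr8: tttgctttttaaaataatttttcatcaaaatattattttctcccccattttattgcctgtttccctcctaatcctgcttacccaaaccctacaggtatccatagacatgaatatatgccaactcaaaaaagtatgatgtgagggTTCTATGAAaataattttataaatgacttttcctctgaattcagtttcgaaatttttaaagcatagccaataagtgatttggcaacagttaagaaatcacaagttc
Tlr13: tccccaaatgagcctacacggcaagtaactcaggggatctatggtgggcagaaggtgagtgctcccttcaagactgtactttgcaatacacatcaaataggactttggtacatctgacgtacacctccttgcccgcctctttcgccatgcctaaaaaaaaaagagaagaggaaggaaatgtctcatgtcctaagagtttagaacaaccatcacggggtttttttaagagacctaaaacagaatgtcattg
*Myd88* held a GAS match at bases -46 to -38 from the RefSeq start and, overlapping it, an ISRE match at -40 to -31. *Tlr8* held a GAS match at -106 to -98. *Tlr13*, *Tlr2* and *Tlr9* held none of the 3. A match is a run of letters only, and factor binding was not measured.

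Of the surface receptors, taken over whole classes, *Tlr4* in monocyte-like cells and *Tlr2* in granulocyte-like cells were higher in SAA by more than counting error. *Tlr4* (chr4:66827584-66930284, GRCm38 as for all genes here) had 82 UMIs (40.4 CPM) in monocyte-like cells of SAA and 22 UMIs (16.2 CPM) in those of RC, an SAA to RC ratio of 2.50 (1.54–4.20). With each cell thinned to 2600 UMIs, 8.61% of monocyte-like cells of SAA (5.54–12.6) and 4.51% of those of RC (2.35–7.75) held *Tlr4*. These intervals overlap. In granulocyte-like cells *Tlr4* had 72 UMIs (21.7 CPM) in SAA and 44 UMIs (17.7 CPM) in RC, a ratio of 1.22 (0.83–1.82) whose interval includes 1. *Tlr2* (chr3:83836272-83841767) had 44 UMIs (13.3 CPM) in granulocyte-like cells of SAA and 14 UMIs (5.65 CPM) in those of RC, a ratio of 2.35 (1.26–4.64). In monocyte-like cells, where its level was higher, it had 108 UMIs (53.2 CPM) in SAA and 57 UMIs (42.0 CPM) in RC, a ratio of 1.27 (0.91–1.78). The contrast between the classes was not stable at equal depth. In granulocyte-like cells thinned to 2600 UMIs each, the log2 ratio of *Tlr2* was 0.54, against 1.23 before thinning, and that of *Tlr4* was 0.99, against 0.29. *Tlr2* was then held by 3.63% of granulocyte-like cells of SAA (2.05–5.92) and 2.52% of those of RC (1.10–4.91), and *Tlr4* by 7.26% (4.95–10.2) and 3.47% (1.74–6.12). In another random draw at the same depth the shares were 3.87% and 0.631% for *Tlr2* and 5.33% and 5.05% for *Tlr4*, so these few UMIs do not settle in which class either gene differed more. Without the monocyte-like cells that held a UMI of a macrophage marker, a choice made after the data were seen, the log2 ratio of *Tlr2* was -0.03 against 0.34 with them. The macrophage markers summed to 195.2 CPM in monocyte-like cells of SAA (6 of 6 detected) and 58.9 CPM in those of RC (3 of 6 detected, with *C1qb*, *C1qc* and *Mertk* at 0).

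The co-receptors of TLR4 did not share its direction in monocyte-like cells. *Cd14* (chromosome 18), which presents lipopolysaccharide to TLR4, had 12 UMIs (5.92 CPM) in SAA and 20 UMIs (14.7 CPM) in RC, a ratio of 0.40 (0.18–0.86). *Ly96* (chr1:16688051-16709611) had 43 UMIs (21.2 CPM) in SAA and 48 UMIs (35.3 CPM) in RC, a ratio of 0.60 (0.39–0.92). Over the whole class both were thus lower in SAA where the receptor was higher. Within the cell-cycle groups described below, *Ly96* had ratios of 0.75 (0.41–1.35) in non-cycling and 0.54 (0.28–1.06) in cycling cells, neither beyond counting error. Granulocyte-like cells held few copies of either, with 6 and 4 UMIs of *Cd14* and 2 and 5 UMIs of *Ly96* in SAA and RC, too few to tell a difference. The UMIs of *Cd14* lay in 9 of 285 monocyte-like cells of SAA and 17 of 342 of RC, and within non-cycling cells its ratio of 0.42 (0.15–1.04) was no longer beyond counting error.

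**Figure D1:**
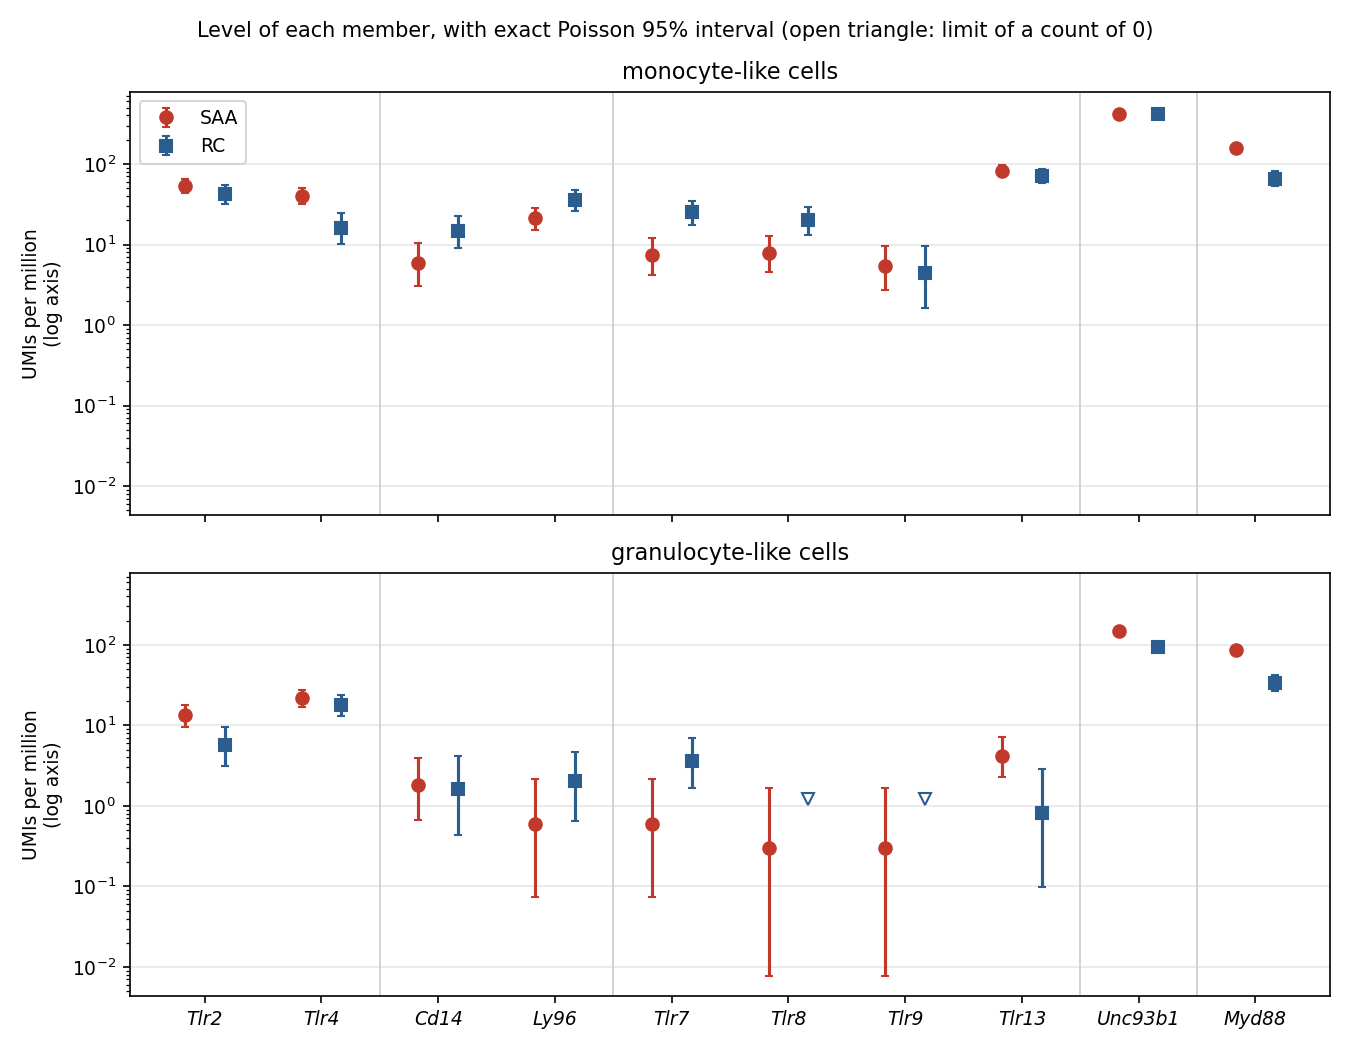
CPM (log axis) of the 10 genes in monocyte-like (top) and granulocyte-like cells (bottom) of SAA (circles) and RC (squares), bars giving exact Poisson 95% intervals. An open triangle marks the level of 3 UMIs for a gene at 0 UMIs, and grey lines part surface receptors, co-receptors, endosomal receptors, chaperone and adaptor. *Myd88* lies higher in SAA in both panels, while *Tlr7* and *Tlr8* lie lower in SAA in the upper one.

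Of the endosomal receptors, *Tlr7* and *Tlr8* were lower over all monocyte-like cells of SAA, and *Tlr13*, with the most UMIs, was not. *Tlr7* (chrX:167304929-167330558), a sensor of single-stranded RNA, had 15 UMIs (7.40 CPM) in monocyte-like cells of SAA and 34 UMIs (25.03 CPM) in those of RC, a ratio of 0.30 (0.15–0.56). *Tlr8* (chrX:167242696-167264329), its neighbour on the X chromosome, had 16 UMIs (7.89 CPM) in SAA and 27 UMIs (19.9 CPM) in RC, a ratio of 0.40 (0.20–0.76). Both were thus lower in SAA by more than counting error. The sums of both dendritic cell marker lists were also lower in these cells of SAA than of RC. Single markers did not all go that way, since *Cox6a2* and *Xcr1* were detected in SAA and not in RC. Without cells at 3 or more UMIs of the plasmacytoid list the log2 ratios of *Tlr7*, *Tlr8* and *Cd14* were -1.77, -1.34 and -1.32. In RC that list was detected through *Tcf4* alone, so leaving out these cells cannot decide the part of plasmacytoid dendritic cells. The part of conventional dendritic cells in the lower levels was not tested. *Tlr13* (chrX:106143204-106160493), which senses bacterial ribosomal RNA in mice, had the most UMIs of the 4, with 167 (82.3 CPM) in SAA and 96 (70.7 CPM) in RC, a ratio of 1.17 (0.90–1.51). *Tlr9* (chr9:106222598-106226883), the receptor for CpG DNA, had 11 and 6 UMIs (5.42 and 4.42 CPM), a ratio of 1.23 (0.42–4.04) that leaves a change in either direction possible. *Tlr7*, *Tlr8* and *Tlr13* are X-linked, and both libraries mixed cells of both sexes: monocyte-like cells held *Xist* at 205.1 CPM in SAA and 299.6 CPM in RC, and 4 Y-linked genes at 29.1 and 54.5 CPM. The part of the sex mix in these ratios was not tested.

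Among monocyte-like cells, the lower *Tlr7* in SAA was seen in non-cycling cells and could not be judged in cycling ones. A cell was called cycling where at least 0.1% of its UMIs fell on 11 cell-cycle genes, which gave 142 cycling and 143 non-cycling monocyte-like cells in SAA and 93 and 249 in RC. The class was therefore made up differently in the libraries, and 123 and 86 cells of all classes lay near the boundary. Non-cycling cells held 9 UMIs of *Tlr7* (12.1 CPM) in SAA and 32 UMIs (40.3 CPM) in RC, a ratio of 0.30 (0.13–0.64). Cycling cells held 6 and 2 UMIs, a ratio of 1.32 (0.24–13.4). *Tlr8* showed 0.36 (0.13–0.87) in non-cycling cells and 0.66 (0.21–2.25) in cycling cells. The size of the *Tlr7* difference also moved with the cells and depth used, since its log2 ratio was -1.76 over all monocyte-like cells, -1.01 after each cell was thinned to 2600 UMIs, and -0.72 in cells with at least 1500 genes and at most 10% mitochondrial UMIs. Among non-cycling monocyte-like cells of RC, *Tlr7* stood at 47.5 CPM in the 124 with a *Cx3cr1* UMI and 33.0 CPM in the 125 without, with intervals that overlap. Without cells that held a *Cx3cr1* UMI in either library, also chosen after the data were seen, the log2 ratio of *Tlr7* was -1.27.

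In granulocyte-like cells the endosomal receptors were near the limit of detection. *Tlr8* and *Tlr9* had 1 UMI each in SAA and 0 in RC, where 0 UMIs allow up to 1.21 CPM. *Tlr7* had 2 UMIs in SAA and 9 in RC, a ratio of 0.17 (0.02–0.80). Of these, 0 and 8 lay in cycling cells led by specific granule genes, a group described below. *Tlr13* had 14 UMIs in SAA and 2 in RC, a ratio of 5.24 (1.20–47.5). Of those 14 UMIs, 13 lay in 25 granulocyte-like cells that also held at least 5 UMIs of the monocyte marker sum and had a median of 13612 UMIs, against 6627 UMIs in the other granulocyte-like cells of SAA. Without cells at 5 or more UMIs in both marker sums the log2 ratio of *Tlr13* was -1.28, on the other side of 0. *Tlr13* in granulocyte-like cells is thus 1 UMI in SAA outside those cells, and RC had 8 such cells with 0 of its 2 UMIs.

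*Unc93b1*, on which the endosomal receptors depend, and *Myd88*, on which all 6 receptors depend, differed in pattern. *Unc93b1* (chr19:3935186-3949340) had the most UMIs of the set. In monocyte-like cells it had 838 UMIs (413.2 CPM) in SAA and 565 UMIs (415.9 CPM) in RC, a ratio of 0.99 with a narrow interval (0.89–1.11). In granulocyte-like cells it had 494 UMIs (149.0 CPM) in SAA and 233 UMIs (94.0 CPM) in RC, a ratio of 1.59 (1.35–1.86). The chaperone was thus at nearly the same level in both conditions in the class where *Tlr7* and *Tlr8* were lower.

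*Myd88* (chr9:119335934-119341411) was higher in SAA in both classes and by nearly the same factor. It had 321 UMIs (158.3 CPM) in monocyte-like cells of SAA and 89 UMIs (65.5 CPM) in those of RC, a ratio of 2.42 (1.90–3.09). In granulocyte-like cells it had 283 UMIs (85.4 CPM) in SAA and 84 UMIs (33.9 CPM) in RC, a ratio of 2.52 (1.97–3.25). The higher level was spread over cells: after thinning to 2600 UMIs, 32.2% of monocyte-like cells of SAA (26.6–38.2) and 16.9% of those of RC (12.6–22.0) held a UMI, and 20.3% and 5.68% of granulocyte-like cells did. Before thinning these shares were 61.8% and 23.1%, and 44.9% and 20.8%. T/NK-like cells of SAA, which can transcribe *Myd88*, held it in 20.7% of cells after thinning and *Unc93b1* in 5.13% of cells before it. Over 16 alternatives of cell filter, class rule, scaling, depth and cell cycle the log2 ratio of *Myd88* in monocyte-like cells stayed between 1.23 and 1.90, and over 14 in granulocyte-like cells between 1.25 and 1.89. The gene overlaps *Acaa1a* on the other strand over 1736 bases, of which 290 are exonic in both, and *Slc22a14* on its own strand, which had 0 UMIs. Use of strand in the counting is not given in the sources used here, so reads of the shared stretch cannot be told apart from those of *Acaa1a*, whose own ratios were 1.69 and 1.82.

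**Figure D2:**
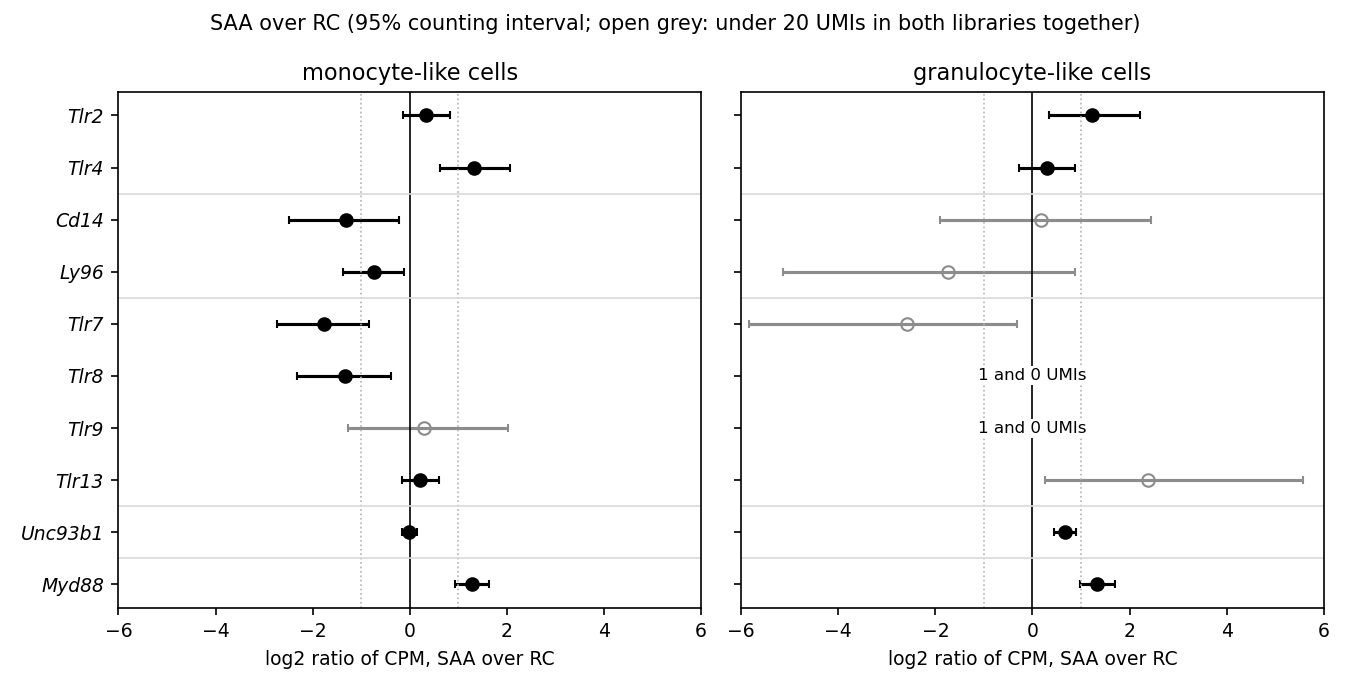
Log2 ratio of CPM, SAA over RC, of the 10 genes in monocyte-like (left) and granulocyte-like cells (right), with exact conditional binomial 95% intervals. Dotted lines mark a 2-fold difference, and open grey circles mark genes with under 20 UMIs over both libraries. *Tlr4* and *Myd88* lie right of 1 and *Cd14*, *Tlr7* and *Tlr8* left of -1 in monocyte-like cells, and *Tlr2* and *Myd88* lie right of 1 in granulocyte-like cells.

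Over the set, 9 genes had at least 20 UMIs over both libraries in monocyte-like cells (all but *Tlr9*). Of these, 2 were at least 2-fold higher in SAA, where 7.80% of all 8662 genes with as many UMIs were, and 3 were at least 2-fold lower, where 8.67% were. Their median log2 ratio was -0.01, beside -0.06 over all genes. In granulocyte-like cells 4 of the 10 had enough UMIs (*Tlr2*, *Tlr4*, *Unc93b1*, *Myd88*), and 2 of these were at least 2-fold higher, where 6.63% of all 8812 genes were, and 0 at least 2-fold lower, where 5.12% were. Their median log2 ratio was 0.95, beside 0.04 over all genes. The difference between conditions thus ran both ways within the set in monocyte-like cells.

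Surface and endosomal receptors were then compared as sums. UMIs count molecules from their 5′ ends and do not grow with transcript length, and the sums are dominated by the genes with the most UMIs. The surface sum (*Tlr2* and *Tlr4*) in monocyte-like cells was 190 UMIs (93.7 CPM) in SAA and 79 UMIs (58.2 CPM) in RC, a ratio of 1.61 (1.23–2.12). The endosomal sum was 209 UMIs (103.0 CPM) in SAA and 163 UMIs (120.0 CPM) in RC, a ratio of 0.86 (0.70–1.06) whose interval includes 1. Endosomal receptors thus took 52.4% of receptor UMIs in SAA (47.4–57.4) and 67.4% in RC (61.1–73.2), and the surface ratio was 1.87 times the endosomal ratio (1.33–2.66). *Tlr13* carried most of the endosomal UMIs of SAA. Without it, a choice made after the data were seen, the endosomal share was 18.1% in SAA (13.4–23.7) and 45.9% in RC (37.6–54.3), and the surface ratio was 3.82 times the ratio of *Tlr7*, *Tlr8* and *Tlr9* (2.34–6.29).

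This shift had the same direction within non-cycling and cycling cells, although the endosomal sum itself did not. In non-cycling monocyte-like cells the endosomal share was 54.1% in SAA (46.8–61.2) and 68.6% in RC (61.5–75.1). In cycling ones it was 50.7% (43.6–57.8) and 62.7% (48.1–75.9), with intervals that overlap. The endosomal sum had a ratio of 0.86 (0.66–1.12) in non-cycling and 1.42 (0.94–2.18) in cycling cells, and the surface sum 1.60 (1.14–2.26) and 2.31 (1.41–4.0). Over the whole class the endosomal sum, which leaves out *Tlr3*, *Tlr11* and *Tlr12*, was lower in SAA, though not beyond counting error. That direction did not hold in cycling cells, nor in cells with at least 1500 genes, where the log2 ratio of the sum was 0.22. In granulocyte-like cells the surface ratio was 1.5 (1.08–2.09), the endosomal share was 13.4% in SAA (8.16–20.4) and 15.9% in RC (8.24–26.7), with intervals that overlap. Without *Tlr13*, again chosen after the data were seen, the share rested on 4 and 9 endosomal UMIs and was 3.33% in SAA (0.92–8.31) and 13.4% in RC (6.33–24.0), and the surface ratio was 4.46 times the endosomal ratio (1.18–20.7).

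**Figure D3:**
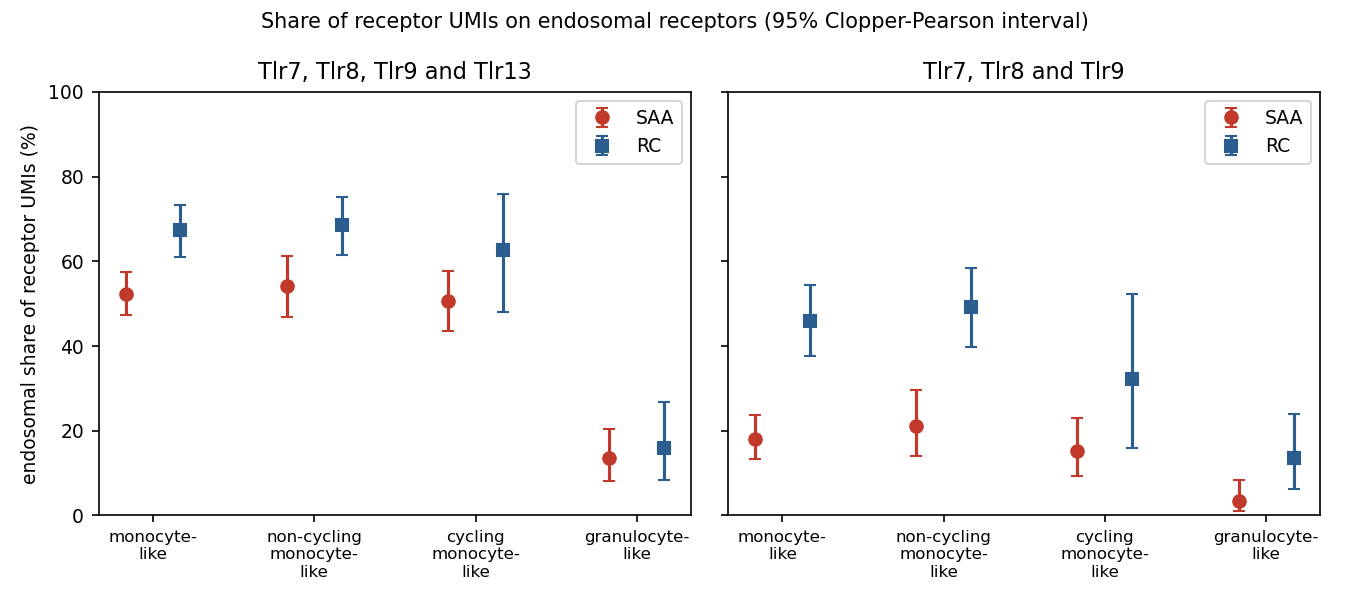
Share of the UMIs of TLR genes that fell on endosomal receptors, in percent with Clopper-Pearson 95% intervals, with all 4 endosomal receptors (left) and without *Tlr13* (right), for SAA (circles) and RC (squares). The share in monocyte-like cells is 52.4% in SAA and 67.4% in RC on the left, and 18.1% and 45.9% on the right.

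Detection of both receptor groups in single cells depended on depth. Before thinning, 130 of 285 monocyte-like cells of SAA held a UMI of a surface receptor and 65 (22.8%) held UMIs of both groups, against 66 and 29 (8.48%) of 342 in RC. After thinning, 20.2% of monocyte-like cells of SAA (15.6–25.5) and 14.3% of those of RC (10.3–19.1) held a UMI of a surface receptor. A UMI of an endosomal receptor was held by 27.7% (22.4–33.5) and 28.2% (22.9–34.0), and UMIs of both groups by 5.24% and 4.89%. At such depth a cell without a UMI need not lack the transcript. In granulocyte-like cells a surface receptor was seen in 10.4% of cells of SAA (7.64–13.8) and 5.99% of those of RC (3.65–9.20), and an endosomal one in 0.969% and 1.26%. In T/NK-like cells of SAA, which served as a background, *Tlr4* had 1 UMI and *Tlr2* and the 4 endosomal receptors had 0 in 39 cells (median 4629 UMIs, against 6082 in monocyte-like cells of SAA), which allows a share of up to 7.69% for a count of 0. In monocyte-like cells of SAA, also before thinning, *Tlr7* was held by 5.26% of cells, *Tlr8* by 4.91%, *Tlr9* by 3.86% and *Cd14* by 3.16%, none above that limit.

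Levels also differed between the classes within each library. Of 6 genes with enough UMIs in SAA, 4 were at least 2-fold higher in monocyte-like cells, where 20% of all genes were, and of 9 in RC, 7 were, where 23.5% were. None was 2-fold lower, where 8.99% and 9.73% of all genes were. A gene passed the minimum on the UMIs of both classes together, in RC for instance *Tlr8* with 27 and 0 UMIs and *Tlr13* with 96 and 2. Such a gene could only count as higher in monocyte-like cells, so the filter partly fixed these counts in advance. The endosomal sum was 19.0 times higher in monocyte-like cells in SAA (11.7–32.7) and 27.1 times in RC (14.7–55.3). The surface sum was 2.68 times higher in SAA (2.11–3.40) and 2.49 times in RC (1.75–3.55), so both libraries gave the endosomal receptors the steeper step between classes. *Ly96* had the steepest step of the surface group, 35.1 times in SAA (9.16–299) and 17.5 times in RC (7.01–56.4). *Tlr4* stood apart: it was 1.86 times higher in monocyte-like cells of SAA (1.34–2.59), and 0.91 times in RC (0.52–1.56). *Myd88* had nearly the same step in both, 1.85 (1.58–2.18) and 1.93 (1.42–2.64).

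Within the monocyte-like class, *Tlr2* and *Tlr13* had a higher CPM in non-cycling than in cycling cells of both libraries. So had *Unc93b1* (506.0 and 359.5 CPM in SAA, 494.2 and 306.1 CPM in RC) and *Myd88* (226.1 and 119.0 CPM, 89.5 and 31.8 CPM). *Tlr2* stood at 78.1 CPM in non-cycling and 38.9 CPM in cycling monocyte-like cells of SAA, and at 58.0 and 19.5 CPM in those of RC. *Tlr13* stood at 110.4 and 66.1 CPM in SAA and 92.0 and 40.7 CPM in RC. Cycling cells were deeper, with medians of 8506.5 against 4629 UMIs in SAA and 5663 against 2907 in RC. Before thinning, 39.9% of non-cycling and 45.8% of cycling cells of SAA held *Tlr13*, and 29.4% and 29.6% held *Tlr2*. In RC these shares were 22.9% and 22.6%, and 15.7% and 11.8%. After thinning they were 26.6% and 18.7%, and 14.1% and 12.2%, in SAA, and 22.9% and 15.4%, and 13.7% and 4.40%, in RC. *Tlr4* was flatter, with 43.1 and 38.9 CPM in SAA and 17.7 and 14.2 CPM in RC. The SAA to RC ratio of *Myd88* was 2.53 (1.90–3.38) in non-cycling and 3.74 (2.29–6.48) in cycling monocyte-like cells, with overlapping intervals. Among granulocyte-like cells, split by azurophil (*Elane*, *Mpo*, *Prtn3*, *Ctsg*) against specific granule genes (*Camp*, *Ngp*, *Ltf*, *Mmp8*), the largest group was cycling with specific granule genes in front, with 342 cells in SAA and 237 in RC. There *Myd88* had a ratio of 2.61 (1.93–3.57), *Unc93b1* of 1.72 (1.41–2.10) and *Tlr2* of 3.48 (1.32–11.6). Within non-cycling monocyte-like cells of SAA, *Tlr2* stood at 90.2 CPM (66.7–119) in the 98 with a UMI of *Cxcl9*, an interferon-γ-induced chemokine, and at 45.1 CPM (20.6–85.6) in the 45 without, while *Tlr4* stood at 35.0 (21.0–54.6) and 65.1 CPM (34.7–111), so that neither gene differed beyond counting error.

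**Figure D4:**
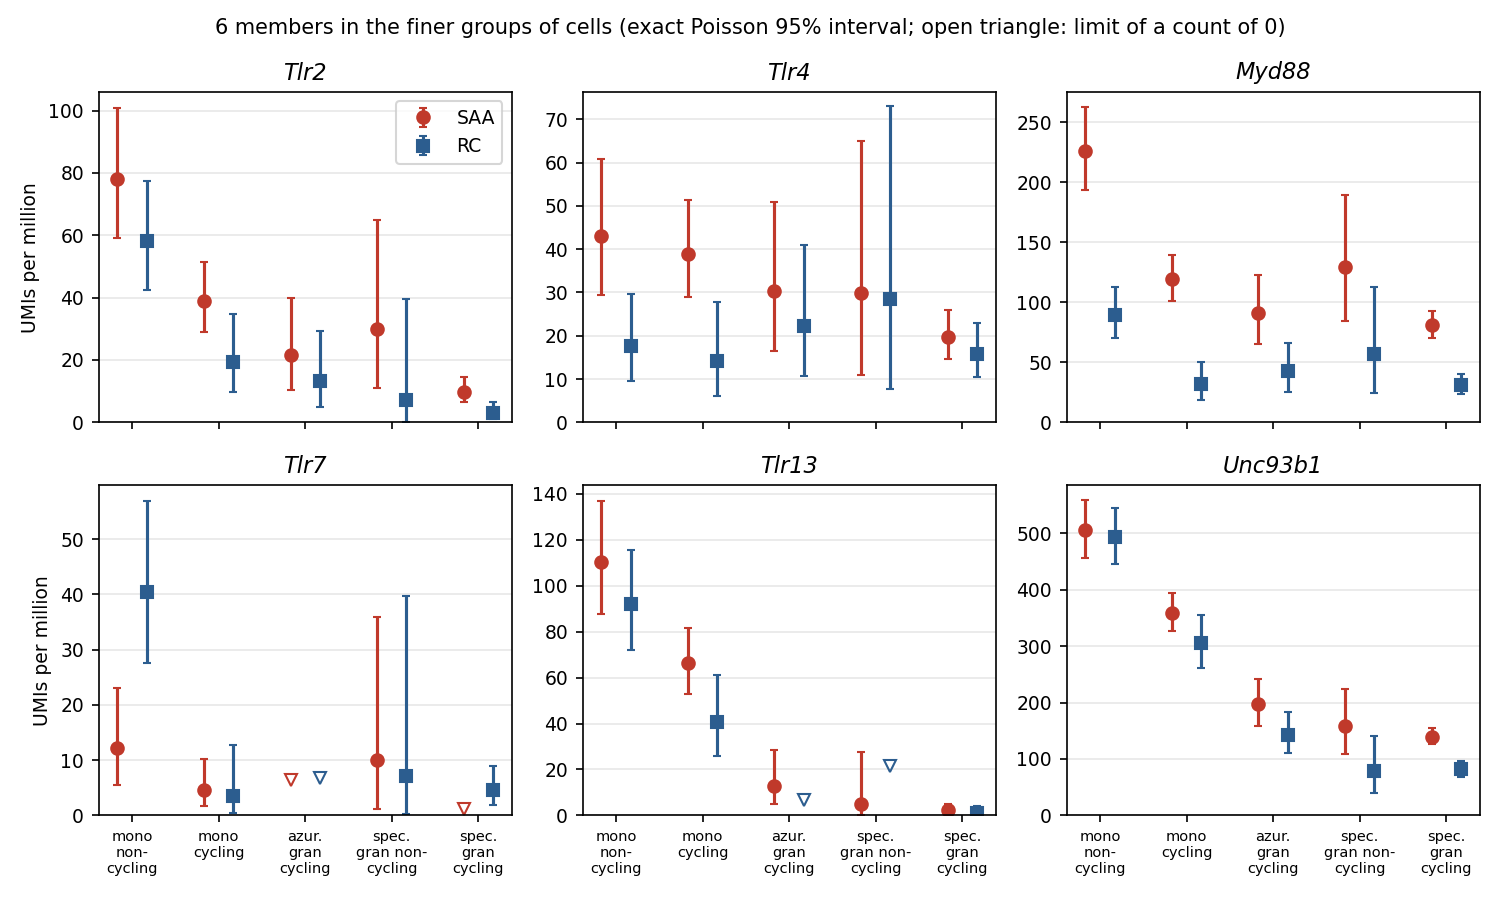
CPM of 6 genes in finer groups of monocyte-like (mono) and granulocyte-like (gran) cells of SAA (circles) and RC (squares), with exact Poisson 95% intervals. Azur. and spec. name cells led by azurophil and specific granule genes; non-cycling azurophil cells (2 in SAA, 13 in RC) are left out. *Myd88* lies higher in SAA in all 5 groups shown. *Tlr7* lies lower in SAA in non-cycling monocyte-like cells and in cycling granulocyte-like cells led by specific granule genes (0 UMIs in SAA, 8 in RC).

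The other TLRs entered neither the surface nor the endosomal sum, and no sums with them were made. *Tlr1*, which pairs with TLR2, had 44 UMIs in monocyte-like cells of SAA and 9 in those of RC, a ratio of 3.27 (1.58–7.63). *Tlr6*, its alternative partner, had 35 and 24 UMIs there, a ratio of 0.98 (0.57–1.72), and 27 and 8 UMIs in granulocyte-like cells, a ratio of 2.52 (1.12–6.43). *Tlr12*, an endosomal receptor for profilin in mice, had 24 UMIs in SAA and 1 in RC, a ratio of 16.1 (2.62–661), so that not every endosomal receptor was lower in SAA. *Tlr11*, its partner, had 15 and 1 UMIs, *Tlr3* 5 and 0 and *Tlr5* 2 and 2.

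Of 12 accessory and trafficking genes, 12 had enough UMIs in monocyte-like cells, with 3 at least 2-fold higher and 0 lower in SAA (median log2 0.36), beside 7.80% and 8.67% of all genes. *Hsp90b1*, which encodes gp96, the endoplasmic reticulum chaperone that folds TLRs, stood at 1511 CPM in SAA and 561 CPM in RC, a ratio of 2.69 (2.49–2.92), and had a ratio of 2.05 (1.91–2.21) in granulocyte-like cells. *Lbp*, the lipopolysaccharide-binding protein, had 49 and 13 UMIs (24.2 and 9.57 CPM) in monocyte-like cells, a ratio of 2.52 (1.35–5.07). Its level was higher in granulocyte-like cells, with 512 and 243 UMIs (154.4 and 98.0 CPM), a ratio of 1.58 (1.35–1.84). *Cd36*, a scavenger receptor that aids TLR2, had 20 UMIs in monocyte-like cells of SAA and 0 in those of RC, at least 4.46-fold higher. *Arf6* (1.32, 1.05–1.68) and *Ap3b1* (0.87, 0.67–1.14) differed less in monocyte-like cells.

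The adaptors and kinases other than *Myd88* differed less. Of 13 adaptors and kinases, 12 had enough UMIs in each class, and 0 of them in monocyte-like cells and 1 in granulocyte-like cells was at least 2-fold higher (medians -0.14 and 0.17), beside 7.80% and 6.63% of all genes. In monocyte-like cells *Irak1*, a kinase of the MYD88 complex, had a ratio of 0.95 (0.73–1.25), *Ube2n* of 1.09 (0.89–1.34), *Peli1* of 1.44 (1.12–1.84) and *Tab2*, which links TRAF6 to TAK1, of 0.59 (0.49–0.71). In granulocyte-like cells *Tab2* had a ratio of 1.67 (1.37–2.05) and *Peli1*, a ubiquitin ligase, of 2.16 (1.60–2.94). Of 13 genes of the NF-κB and IRF branch, 1 of 13 and 2 of 12 were at least 2-fold higher and 0 lower (medians 0.08 and 0.51), of which the share in monocyte-like cells is near the 7.80% of all genes. *Irf7*, the interferon-inducible factor downstream of endosomal TLRs, had 160 and 37 UMIs in monocyte-like cells (2.90, 2.01–4.26) and 163 and 2 UMIs in granulocyte-like cells (61.0, 16.6–508). *Ikbkg* was higher in granulocyte-like cells of SAA (2.05, 1.19–3.67). *Ikbkb*, the kinase that marks IκB for degradation, was lower in monocyte-like cells of SAA (0.51, 0.42–0.61), as was *Rel* (0.65, 0.52–0.82), while *Nfkb1* (0.85, 0.71–1.02) did not differ beyond counting error and *Ikbke* was higher (1.49, 1.11–2.02).

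Inhibitors and targets of the pathway were counted in the same way, beside 7.80% of all genes higher and 8.67% lower in monocyte-like cells and 6.63% and 5.12% in granulocyte-like cells. Of 10 inhibitors, 7 had enough UMIs in each class, with 3 at least 2-fold higher in monocyte-like and 1 in granulocyte-like cells and 0 lower (medians 0.46 and 0.23). *Tnfaip3* (A20) had 69 UMIs in monocyte-like cells of SAA and 7 in those of RC (6.60, 3.04–17), *Nfkbia* (IκBα) 391 and 116 (2.26, 1.83–2.80) and *Trafd1* 512 and 141 (2.43, 2.01–2.95). In granulocyte-like cells *Trafd1* had a ratio of 5.12 (3.72–7.19), and *Irak3*, the inactive kinase IRAK-M, was lower in SAA (0.65, 0.51–0.83). *Cyld* was higher by 1.37 in each class (1.05–1.80 and 1.07–1.76). Of 16 TLR-induced targets, 8 had enough UMIs in monocyte-like cells, with 4 at least 2-fold higher and 1 lower (median 0.80), and 5 in granulocyte-like cells, with 3 higher and 0 lower (median 1.40). *Acod1*, which makes itaconate, had 94 UMIs in monocyte-like cells of SAA and 0 in those of RC, at least 21.0-fold higher. The chemokine *Ccl4* had 47 and 2 UMIs (15.7, 4.12–134) in monocyte-like and 41 and 0 in granulocyte-like cells, at least 10.2-fold higher. In monocyte-like cells *Tnf* had a ratio of 3.35 (1.37–9.84), *Cd40* of 2.03 (1.30–3.27) and *Zfp36* of 1.5 (1.15–1.96). *Nfkbiz*, a co-activator induced through MYD88, was lower in monocyte-like cells of SAA (0.40, 0.22–0.69) and higher in granulocyte-like ones (2.65, 1.41–5.34). *Clec4e* had ratios of 1.21 (0.81–1.82) and 4.11 (1.70–12) in the 2 classes. Other signals than TLRs induce these genes too, and T/NK markers also stood higher in SAA monocyte-like cells (152.3 CPM, 10 of 10 detected, against 5.15 CPM and 3 of 10 in RC). In granulocyte-like cells 10 of 10 T/NK markers were detected in SAA (349.0 CPM) and 2 of 10 in RC (409.7 CPM). That class held 7 T/NK-like cells in SAA and 0 in RC. The part of other signals and of T/NK-like cells in these ratios was not tested.

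**Figure D5:**
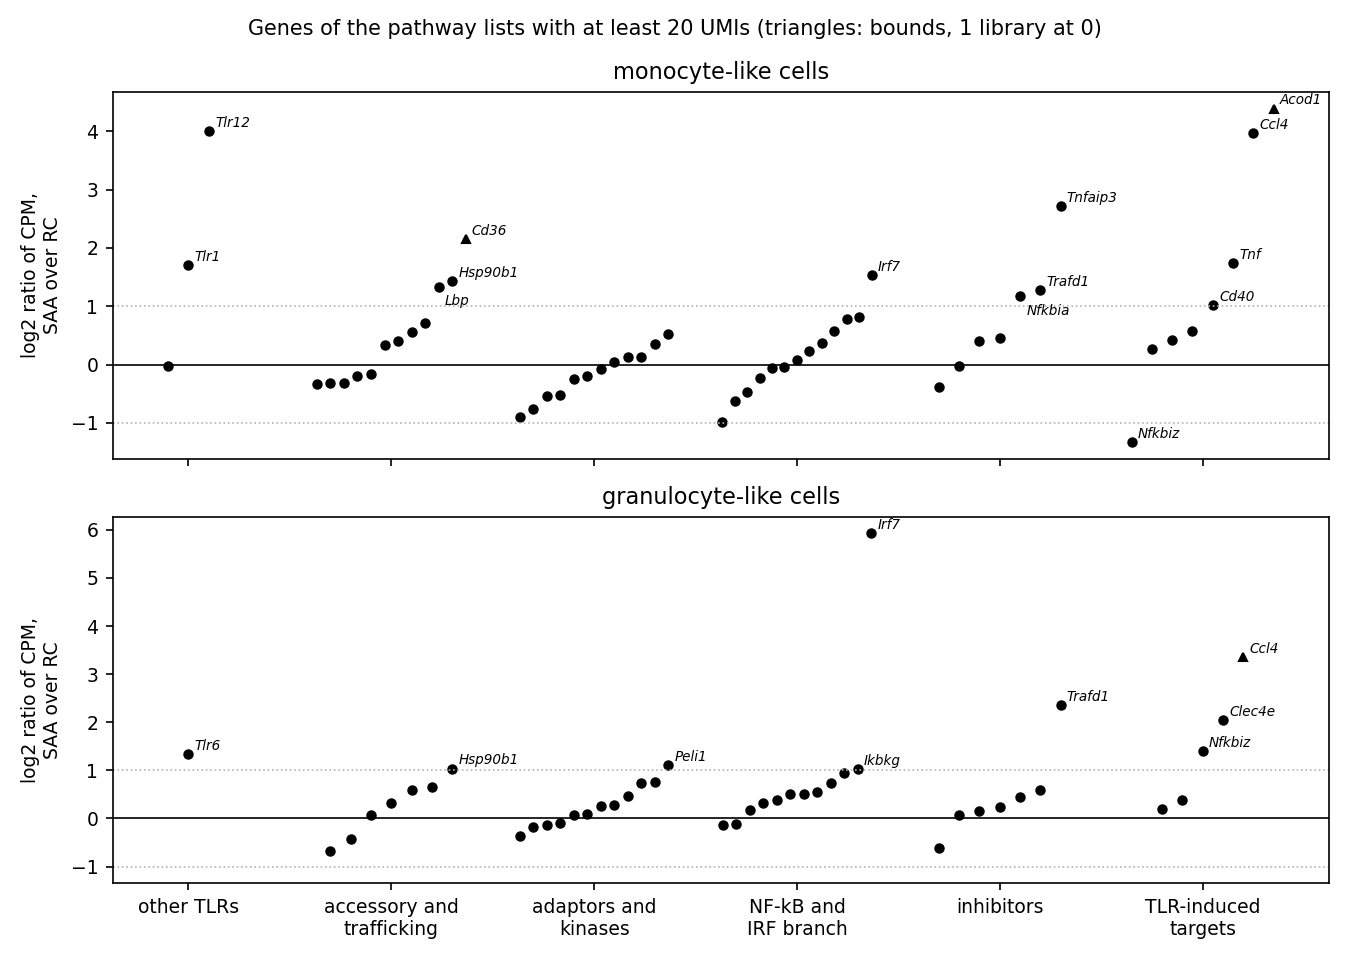
Log2 ratio of CPM, SAA over RC, of pathway genes with at least 20 UMIs over both libraries, by list, in monocyte-like (top) and granulocyte-like cells (bottom). Each point is a gene, and triangles are genes at 0 UMIs in RC, drawn at their ratio against 3 UMIs. Dotted lines mark 2-fold, and genes past it are named. Inhibitors and TLR-induced targets hold *Tnfaip3* (6.60-fold), *Ccl4* and *Acod1*, while no adaptor or kinase passes 2-fold in monocyte-like cells.

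Finally, the genes with the most similar pattern were sought over the 6 finer groups of each library, 12 points that share libraries and differ in depth, for the 5 members with at least 200 UMIs. By Pearson's r of log2(CPM + 10), as a description, *Tlr13* lay nearest to *Msr1* and *Ms4a4c* (0.98 each), *Unc93b1* to *Ctss* (0.97) and *Sh3glb1* (0.96), *Tlr2* to *Rnh1* (0.96) and *Junb* (0.95), *Myd88* to *Grina* (0.95) and *Stat2* (0.94), and *Tlr4* to *Ubr4* (0.93) and *Ensa* (0.92). A point of SAA rests on 2 cells.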

How the data were processed

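Bone marrow of 2 groups of mice was profiled by 10x Genomics single cell 5′ sequencing, 1 library per condition. The authors deposited raw UMI counts for each gene in each barcode. Per the submitters' processing notes, Cell Ranger 6.0.1 and the mm10 build were used. The genes and lists were chosen with earlier results of these data known. UMIs were summed per library and class in barcodes with at least 1000 genes, with ties between the marker sums (23 in SAA, 2 in RC) in neither class, and scaled to CPM. CPM carry exact Poisson, ratios exact conditional binomial and shares Clopper-Pearson 95% intervals. A gene at 0 UMIs in 1 library was set against 3 UMIs. For shares, cells were thinned to 2600 UMIs, which left out 18 and 76 monocyte-like and 8 and 1 granulocyte-like cells of SAA and RC. No doublet caller was run, and an alternative left out cells with both marker sums at 5 or more. Named were all members, of each list the 4 genes with the most UMIs and those past 2-fold whose interval excludes 1, and per member the 2 most similar genes. Python 3.11.15, numpy 2.4.6, scipy 1.17.1, pandas 2.3.3, matplotlib 3.10.9 and edgeR 4.0.16 (TMM factors) were used, and the ratio intervals were tested on simulated counts. Gene coordinates come from GENCODE on GRCm38, which matched 30934 genes by identifier. Alternatives changed the cell filter, class rule, scaling, weighting, depth, cell cycle and minimum of UMIs.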

Additional observations from a re-analysis of the deposited data

Results flagged for a closer look

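*Cd14* and *Unc93b1* lay on opposite sides of 0 in the 2 classes. The log2 SAA to RC ratio of *Cd14* was -1.32 in monocyte-like and 0.17 in granulocyte-like cells, where it rests on 6 and 4 UMIs. That of *Unc93b1* was -0.0097 in monocyte-like cells, where it changed sign under 11 of 16 alternatives, and 0.67 in granulocyte-like cells. With 1 library per condition, the difference between classes was not tested for either gene.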

How the results depend on the processing

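No paired analysis was possible because each condition has 1 library, and no replicate could be left out. Of 263 values of single-gene ratios under alternatives, 250 stayed within the counting interval, 9 left it on the same side of 0 or from a value not beyond counting error, and 4 turned to the other side of 0 from a value that was beyond it. Those 4 were *Cd14* (log2 0.14) and *Tlr7* (0.40) in cycling monocyte-like cells, *Tlr7* in non-cycling granulocyte-like cells (1.31) and *Tlr13* in granulocyte-like cells without cells holding both marker sums (-1.28). Values not beyond counting error crossed 0 as well: in monocyte-like cells *Unc93b1* under 11, *Tlr9* under 2 and *Tlr2* under 1 (-0.03) of 16 alternatives, and *Cd14* in granulocyte-like cells under 2 of 12. *Tlr4* in monocyte-like cells ranged from 1.05 to 2.04 and *Tlr8* from -1.65 to -0.60. Of the sums, the log2 ratio of surface receptors in monocyte-like cells was 1.21 in cycling cells alone, and that of endosomal receptors was 0.50 there, 0.22 with at least 1500 genes and -1.25 without *Tlr13*, which also brought the endosomal share to 18.1% in SAA and 45.9% in RC. In granulocyte-like cells the endosomal log2 ratio was -2.16 without cells holding both marker sums, 2.31 in non-cycling cells and -1.59 without *Tlr13*, and the endosomal share of SAA was 3.03% and 3.33% under the first and last of these. With at least 50 UMIs per gene in place of 20, 440 and 434 genes were at least 2-fold higher and lower in monocyte-like cells in place of 676 and 751, and 385 and 205 in granulocyte-like cells in place of 584 and 451, since fewer genes were counted. Of 80 thinned shares 26 moved, most at 1300 UMIs, and of 48 list counts 13 moved. Where no cause is named, the cause was not tested. Scaling by TMM or by the median of ratios shifted log2 ratios by 0.06 or 0.09 in monocyte-like and by -0.05 or -0.04 in granulocyte-like cells. *Tlr7*, *Tlr8*, *Tlr9* and *Cd14* rest on few UMIs, and differences between mice, which no interval here covers, limit every ratio.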
